A study of Homo sapiens with 15 samples.

Results

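The collagen chain genes were followed across hypoxia and 3 compounds in a human lung cancer cell line. Members were all genes whose symbol is COL, a number, A and a number, read from probe sets that carry 1 gene symbol. Each gene was represented by its probe set with the highest mean signal over all arrays. The rule found 43 genes of 18377 measured, and 41 of the 43 exceeded the 25th percentile of the array's signal in at least 1 group. COL6A5 and COL8A1 did not and are only named here. The highest group mean of COL6A5 lay at -1.20 and that of COL8A1 at -0.22 from the percentile on the log2 scale. The nearest genes on the other side were COL6A3 at 0.21 and COL21A1 at 0.25. COL17A1 and COL6A4 had no probe set of 1 symbol and were not analysed here.

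The study asked how designed oligooxopiperazines, 3 code-named compounds, alter signalling by hypoxia-inducible factor (HIF), the transcription factor that responds to low oxygen. RNA came from A549, an established line of human lung adenocarcinoma cells, and was read on 15 whole-transcript arrays in 5 groups of 3. One group was pretreated for 6 h with vehicle, which was 0.1% DMSO, and stayed in normoxia. The other groups were pretreated for 6 h with vehicle, BB2-125, BB2-162 or BB2-282, the compounds at 10 µM. They were then kept hypoxic in a gas-generating pouch for 42 h. DMSO was at 0.1% in all groups, and no array held a compound in normoxia. The labels call the 3 samples of a group biological replicates and say no more of their independence, so the p-values reflect the spread among these samples alone.

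Collagens are proteins of 3 chains wound into a triple helix, and each chain has its own gene. Fibrillar collagens build the fibres of connective tissue, and collagen IV builds the sheet-like network of basement membranes on which epithelial cells rest. Chains are hydroxylated in the endoplasmic reticulum by enzymes that need oxygen, then secreted, trimmed and cross-linked by lysyl oxidases. Epithelial cells of the lung make basement membrane collagens, whereas fibroblasts make most of the fibrillar kinds.

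The 43 genes fell into 11 fibrillar chains, 9 network chains, 10 chains of the FACIT class, which sit on the surface of fibrils, and 5 beaded-filament chains. A further 3 were transmembrane collagens, 2 were multiplexins, 1 was the anchoring-fibril chain and 2 were of other kinds. All genes of each class were above the percentile except COL8A1, a network chain, and COL6A5, a beaded-filament chain.

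The 6 type IV genes lie head to head as neighbouring pairs, so the DNA sequence between both members of a pair lies upstream of both as annotated. That sequence is shown for the pairs because their members are compared below, and the stretch before the start is shown for COL5A1, COL7A1 and COL12A1, the genes with an entry whose values in hypoxia are given first. COL5A2 had no entry. Sequences are from RefSeq, build GRCh38.p14, in lower case with 4 motifs in capitals, found on either strand. These are CCAAT, the GC box GGGCGG, and ACGTG and GCGTG, both forms of the core that HIF binds. In COL5A1 a GC box and an ACGTG core adjoin, both read on the strand opposite to the one printed, so their capitals run together. The COL4A2 and COL4A1 line is chr13:110307158-110307283 on the plus strand, all 126 bases between the genes. The COL4A3 and COL4A4 line is chr2:227164489-227164623 on the plus strand, all 135 bases between the genes. The COL4A5 line is chrX:108439588-108439837 on the plus strand, 250 of the 379 bases between COL4A6 and COL4A5. The COL5A1 line is chr9:134641553-134641802 on the plus strand, COL7A1 is chr3:48595330-48595579 on the minus strand and COL12A1 is chr6:75206054-75206303 on the minus strand. No RefSeq gene overlaps any of these windows.
COL4A2 and COL4A1: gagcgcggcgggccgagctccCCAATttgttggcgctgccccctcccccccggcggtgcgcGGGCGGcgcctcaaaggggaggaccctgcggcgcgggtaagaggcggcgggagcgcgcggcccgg
COL4A3 and COL4A4: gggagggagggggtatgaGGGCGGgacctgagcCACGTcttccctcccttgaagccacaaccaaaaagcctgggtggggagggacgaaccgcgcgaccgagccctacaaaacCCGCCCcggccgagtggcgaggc
COL4A5: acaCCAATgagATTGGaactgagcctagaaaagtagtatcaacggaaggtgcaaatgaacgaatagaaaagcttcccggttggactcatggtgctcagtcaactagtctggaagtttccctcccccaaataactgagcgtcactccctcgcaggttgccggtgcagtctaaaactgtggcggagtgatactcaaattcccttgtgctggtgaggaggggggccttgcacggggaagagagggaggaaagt
COL5A1: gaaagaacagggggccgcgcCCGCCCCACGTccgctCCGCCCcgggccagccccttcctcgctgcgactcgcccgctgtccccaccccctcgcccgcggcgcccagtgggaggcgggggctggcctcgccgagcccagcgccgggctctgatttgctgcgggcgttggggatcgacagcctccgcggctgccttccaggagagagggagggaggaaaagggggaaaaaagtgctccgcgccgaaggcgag
COL7A1: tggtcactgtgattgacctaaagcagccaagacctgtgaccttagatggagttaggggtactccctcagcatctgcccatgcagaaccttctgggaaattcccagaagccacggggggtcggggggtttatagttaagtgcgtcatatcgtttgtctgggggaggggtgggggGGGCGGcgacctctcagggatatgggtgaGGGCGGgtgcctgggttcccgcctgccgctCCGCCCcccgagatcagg
COL12A1: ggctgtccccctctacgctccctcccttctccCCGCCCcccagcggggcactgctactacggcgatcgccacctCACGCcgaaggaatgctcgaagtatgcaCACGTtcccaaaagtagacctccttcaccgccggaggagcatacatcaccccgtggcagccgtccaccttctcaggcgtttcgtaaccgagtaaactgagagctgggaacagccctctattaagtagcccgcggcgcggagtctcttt

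The stretch between COL4A2 and COL4A1 held 1 CCAAT, 1 GC box and neither form of the HIF core, with a GC content of 80.2%. The 250 bases before COL4A2 reach past this stretch and do hold GCGTG, so COL4A2 counts below among the genes with a HIF core and COL4A1 does not. The stretch between COL4A3 and COL4A4 held 2 GC boxes and 1 ACGTG core. The promoter entry of COL4A4 starts further inside that gene, and its 250 bases do not reach this stretch. COL4A4 thus counts below among the genes without any of the motifs. The window before COL4A5 held 2 CCAAT and none of the other motifs. COL7A1 held 3 GC boxes alone, whereas COL12A1 held 1 GC box and 1 of each HIF core. Among 27305 RefSeq promoters read over the same 250 bases before the start, 43.1% held ACGTG or GCGTG on either strand, against 13 of the 31 collagen genes with an entry (41.9%). A GC box was found in 42.3% of all promoters and in 18 of the 31 (58.1%), and CCAAT in 33.0% and 25.8%. A match of letters is a description of the window and not a binding site.

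The arrays held the marks of the labelled line. The epithelial keratin genes KRT8 and KRT18 lay at the 99.8th and 99.6th percentile of mean signal, KRT19 at the 94.8th and CDH1 at the 75.9th. EPCAM was above the filter too, but at the 28.6th percentile, within the range of the markers of other cell types that follow. Of 7 fibroblast markers, DCN, LUM, FAP, POSTN and PDGFRA were below the filter. The other 2, THY1 and PDGFRB, lay at the 30.1st and 33.5th percentile. THY1 was not called in hypoxia or with a compound, and PDGFRB was called with BB2-162 alone among these. Of 4 leukocyte markers PTPRC was below the filter, whereas CD14, CD3E and ITGAM were above it on all 15 arrays, between the 27.1st and 35.5th percentile of mean signal. All 5 endothelial markers passed it, with PECAM1, VWF, CDH5 and TEK between the 15.9th and 28.4th percentile and CLDN5 at the 63.5th. The part of other cell types in these signals was not tested. BB2-162 replicate 1 was the array least like its group: its root mean square distance from the group mean was 0.221 log2 units over tested genes, and that of each other array lay between 0.094 and 0.163. With tested genes ranked by mean signal and cut into 4 equal bins, 11 collagen genes lay in the lowest bin, 17 in the next, 13 in the bin above that and 0 in the top bin. All values below are log2 signals, errors after ± are standard errors of limma's change with n = 3 arrays in each group, and "called" means an adjusted p under 0.05 over 16005 genes.

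Across hypoxia and the 3 compounds, 23 of the 41 tested collagen genes were called in at least 1 comparison and 18 in none. That is 56.1%, against 75.7% of all tested genes. With at least 1 compound, 12 were called against hypoxic vehicle (29.3%), against 52.1% of all tested genes. COL18A1, whose product gives rise to endostatin, was called in hypoxia or with a compound in none of these 4 comparisons.

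**Figure D1:**
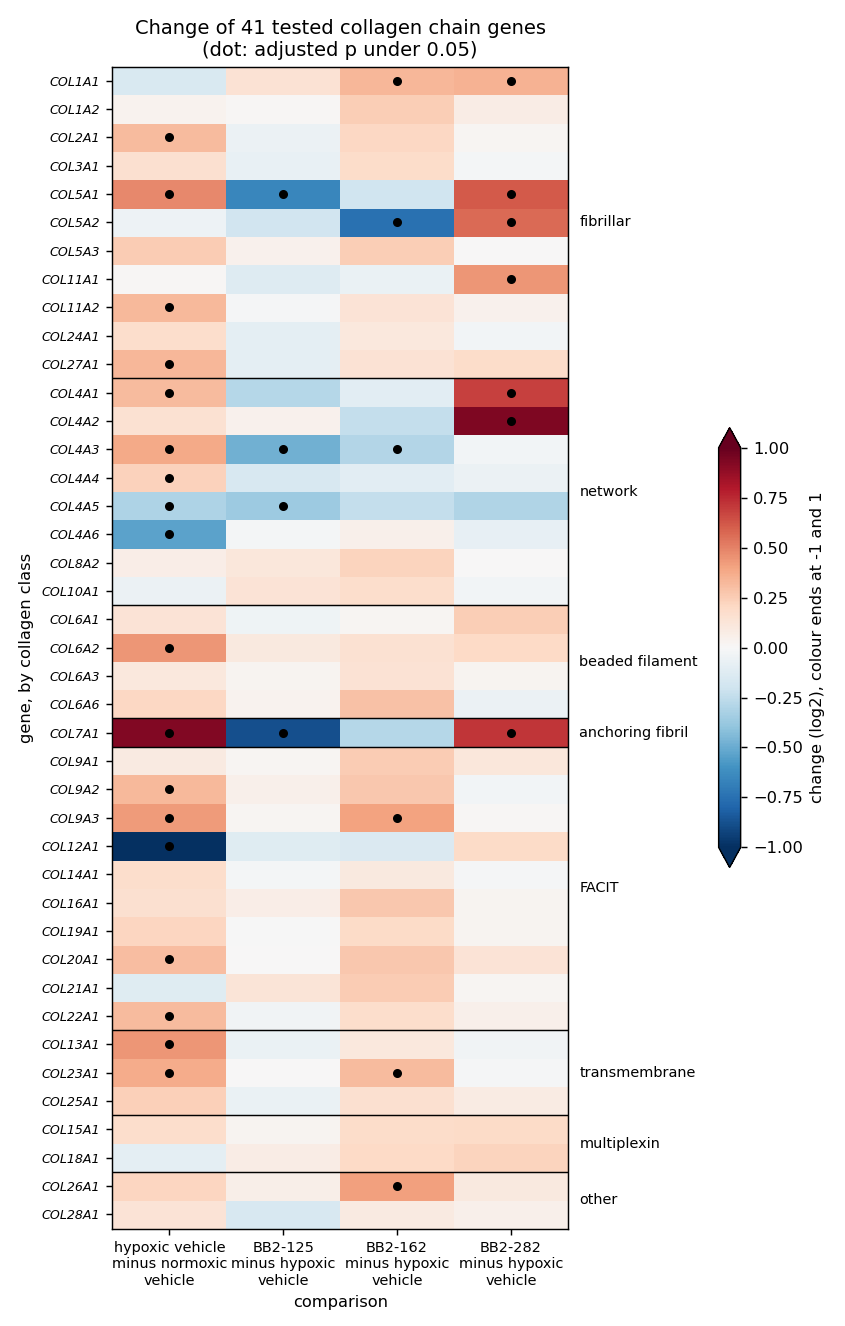
Change of the 41 tested collagen genes (vertical axis, by class) in 4 comparisons (horizontal axis); colour is the difference of group means on the log2 scale, with the scale ending at -1 and 1, and a dot marks an adjusted p under 0.05. Hypoxia has 18 dots, BB2-125 has 4, BB2-162 has 6 and BB2-282 has 7; COL12A1 in hypoxia, at -2.02, lies beyond the end of the scale.

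Hypoxia without compound raised the anchoring-fibril gene COL7A1 and lowered COL12A1, a FACIT chain that binds the surface of type I fibrils. The type V chain COL5A1, which controls fibril diameter, the type IV chains COL4A1, COL4A3 and COL4A4, the microfibril chain COL6A2 and the transmembrane collagen gene COL13A1 were higher, and COL4A5 and COL4A6 were lower. COL4A2 and COL1A1 were not called. In all, 18 of 41 tested collagen genes were called (43.9%), against 57.5% of all tested genes. Of these, 15 were higher and 3 lower, where 28.2% of all tested genes were called higher and 29.4% lower. The median change was 0.18 for the collagen genes and 0.09 for all tested genes, and the median size of change was 0.22 against 0.34. In the lowest bin of mean signal all tested genes had a median of 0.114 and the collagen genes 0.172. The next bin had 0.108 and 0.16, and the bin above that -0.003 and 0.327. Of 5 endothelial markers 1 was called higher (median 0.19). None of 2 fibroblast and 3 leukocyte markers was called (-0.01 and 0.01). The part of such shifts in the small rises of collagen genes was not tested.

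COL12A1 read 7.53, 8.22 and 8.56 in normoxia and 5.92, 6.48 and 5.84 in hypoxia. The groups did not overlap, and the 9 arrays with a compound lay between 5.75 and 6.51, below every normoxic one. It changed by -2.02 ± 0.21 (limma adjusted p = 9.33e-08), to 0.246 of the normoxic signal, the only collagen gene that moved by more than 1 log2 unit in hypoxia. In an array study of bulk cultures, fewer cells that make a transcript and less of it per cell cannot be told apart.

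COL7A1, which anchors basement membranes to the stroma beneath, read 7.49, 7.52 and 7.52 in normoxia and 8.18, 8.54 and 8.60 in hypoxia. All hypoxic arrays were above all normoxic ones, by 0.93 ± 0.11 (limma adjusted p = 9.62e-07). COL5A1 read 7.19, 7.10 and 7.25 in normoxia and 7.50, 7.76 and 7.73 in hypoxia, again without overlap. Its rise was 0.48 ± 0.12 (limma adjusted p = 0.00159).

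COL4A6, whose chain joins that of COL4A5 in some epithelial basement membranes, read 6.54, 6.55 and 6.70 in normoxia and 6.02, 6.05 and 6.11 in hypoxia. It changed by -0.54 ± 0.09 (limma adjusted p = 6.02e-05). COL4A3, a chain of the mature kidney and lung basement membrane, read 6.26, 6.33 and 6.42 in normoxia and 6.71, 6.72 and 6.72 in hypoxia. The hypoxic arrays of COL4A3 lay within 0.01 of each other and above every normoxic one, by 0.38 ± 0.10 (limma adjusted p = 0.00302).

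Among the beaded-filament chains, COL6A2 was called, at 7.60, 7.53 and 7.65 in normoxia and 8.08, 7.91 and 8.12 in hypoxia, a rise of 0.44 ± 0.09 (limma adjusted p = 0.00047). COL6A1, which pairs with it in type VI collagen, changed by 0.14 ± 0.10 and was not called. The transmembrane genes COL13A1 and COL23A1 rose by 0.44 ± 0.10 and 0.37 ± 0.12 (limma adjusted p = 0.000976 and 0.0112). The fibrillar chain COL27A1, a cartilage collagen, rose by 0.33 ± 0.09 (limma adjusted p = 0.00539). COL11A2 rose by 0.33 by its brightest probe set, and its 2 other probe sets, which held identical values, went from a mean of 5.95 in normoxia to 6.31 in hypoxia.

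COL4A1 read 6.03, 6.14 and 6.24 in normoxia and 6.39, 6.38 and 6.60 in hypoxia, a rise of 0.32 ± 0.11 (limma adjusted p = 0.016). COL4A2, its partner in the main type IV trimer, overlapped between the groups at 7.22, 7.27 and 7.24 against 7.27, 7.46 and 7.45. Its difference was 0.15, with a 95% interval of -0.08 to 0.38. COL1A1, the main chain of type I collagen, also overlapped, at 7.70, 7.70 and 7.61 against 7.36, 7.52 and 7.67, a difference of -0.16 with an interval of -0.38 to 0.06.

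The other called genes were COL9A2, COL9A3, COL20A1 and COL22A1 of the FACIT class, COL2A1 of the fibrillar class, and COL4A4 and COL4A5, with changes between -0.31 and 0.42. By class, 4 of 11 fibrillar genes rose, 3 of 8 network genes rose and 2 fell, 4 of 10 FACIT genes rose and 1 fell, and 2 of 3 transmembrane genes rose. Neither multiplexin was called. Of the 18 calls, 9 held in each of 14 alternative settings, those of COL12A1, COL7A1, COL4A6, COL6A2, COL13A1, COL5A1, COL4A3, COL27A1 and COL11A2. The count fell to 10 without hypoxic vehicle replicate 3 and to 11 without normoxic vehicle replicate 2, and COL4A1 lost its call without hypoxic vehicle replicate 3 (0.25, limma adjusted p = 0.0862) or normoxic vehicle replicate 1 (0.27, 0.0661).

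**Figure D2:**
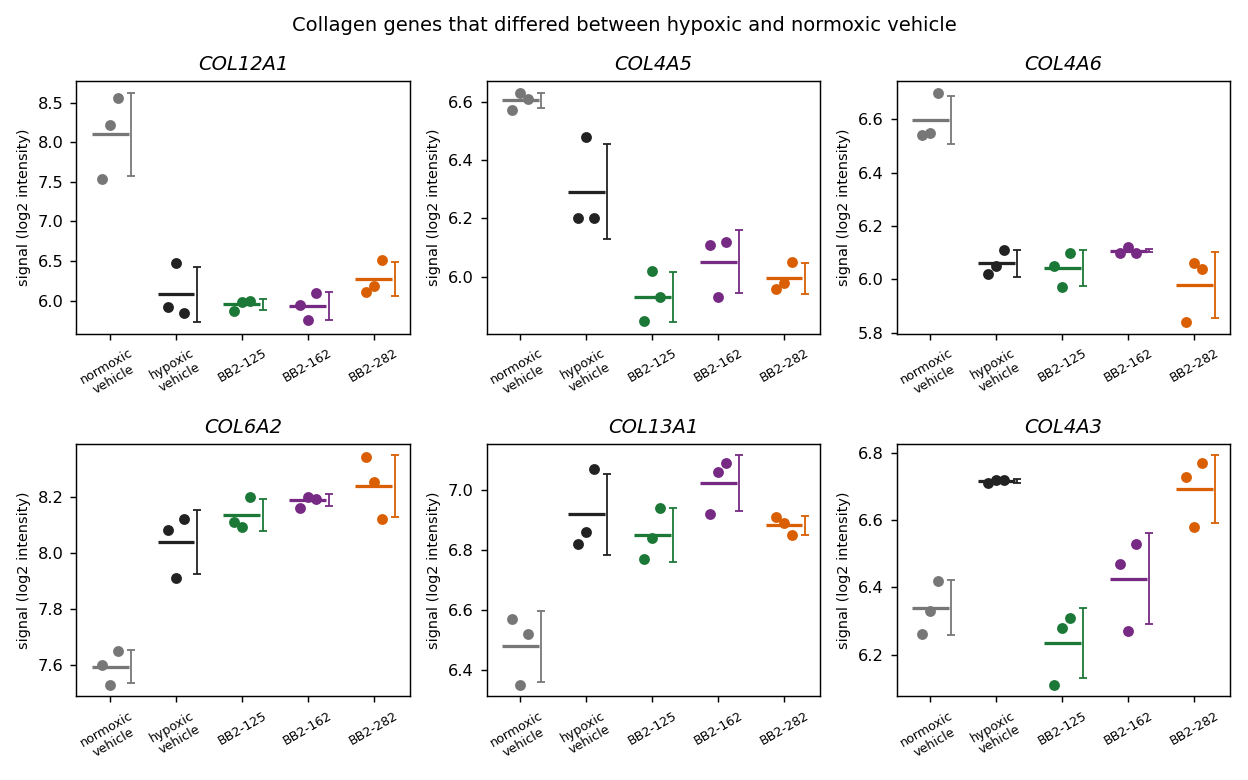
Log2 signal (vertical axis) of 6 collagen genes in the 5 groups (horizontal axis); each dot is 1 array, the horizontal line is the mean of 3 and the bar beside it 1 SD. COL12A1, COL4A5 and COL4A6 are highest in normoxia, COL6A2 and COL13A1 are lowest there, and COL4A3 is low in normoxia and with BB2-125.

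BB2-282 raised the type IV genes COL4A1 and COL4A2, both type V genes of the main heterotrimer, COL5A1 and COL5A2, COL11A1, COL1A1 and COL7A1 above the hypoxic vehicle, and lowered no collagen gene at the threshold. By limma 0 genes were called lower, where an unadjusted p under 0.05 gave 1, COL4A5. Of the 41 tested genes 7 were called (17.1%), all higher, against 13.6% of all tested genes in either direction, 5.65% higher and 7.94% lower. The median change was 0.04 against 0.02 for all tested genes, and the other 34 collagen genes lay between -0.30 and 0.25. All 7 are fibrillar, network or anchoring-fibril chains, 4 of 11, 2 of 8 and 1 of 1, and 0 of the FACIT, transmembrane, multiplexin and beaded-filament genes were called by limma, where an unadjusted p under 0.05 gave 3, COL6A1, COL6A2 and COL18A1.

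COL4A2 read 7.27, 7.46 and 7.45 with vehicle and 8.16, 8.30 and 8.52 with BB2-282. Its lowest array with the compound was above every array of the other 4 groups. The rise was 0.94 ± 0.11 (limma adjusted p = 1.76e-05), or 1.91-fold. COL4A1 read 6.39, 6.38 and 6.60 with vehicle and 7.11, 7.16 and 7.13 with BB2-282, a rise of 0.68 ± 0.11 (limma adjusted p = 0.000325). Its 3 arrays with BB2-282 lay within 0.05 of each other and above those of every other group.

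COL7A1 read 8.18, 8.54 and 8.60 with vehicle and 9.14, 9.15 and 9.17 with BB2-282. The compound thus added 0.71 ± 0.11 (limma adjusted p = 0.000339) to a gene that was higher in hypoxia than in normoxia. COL5A1 read 7.50, 7.76 and 7.73 with vehicle and 8.20, 8.34 and 8.28 with BB2-282, a rise of 0.61 ± 0.12 (limma adjusted p = 0.00155).

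COL5A2, which supplies the other chain of the type V heterotrimer, did not differ in hypoxia by the test, at 6.76, 6.76 and 6.97 in normoxia and 6.73, 6.86 and 6.76 in hypoxia. With BB2-282 it read 7.38, 7.39 and 7.27, a rise of 0.56 ± 0.09 (limma adjusted p = 0.000483). COL11A1, a minor chain that seeds fibrils, read 6.22, 6.12 and 6.25 with vehicle and 6.70, 6.55 and 6.67 with BB2-282, a rise of 0.44 ± 0.10 (limma adjusted p = 0.00472). For COL5A2 and COL11A1 the arrays with BB2-282 were above those of all other groups.

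COL1A1 read 7.36, 7.52 and 7.67 with vehicle and 7.94, 7.90 and 7.76 with BB2-282, a rise of 0.35 ± 0.10 (limma adjusted p = 0.0318). COL1A2, which encodes the other chain of type I collagen, changed by 0.08 (limma adjusted p = 0.738). The calls of COL4A1, COL4A2, COL5A1, COL5A2, COL7A1 and COL11A1 held in each of 14 alternative settings. That of COL1A1 was lost without hypoxic vehicle replicate 1 (0.27, limma adjusted p = 0.182) or 2 (0.35, 0.0808) and without BB2-282 replicate 1 (0.31, 0.125) or 2 (0.33, 0.11).

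**Figure D3:**
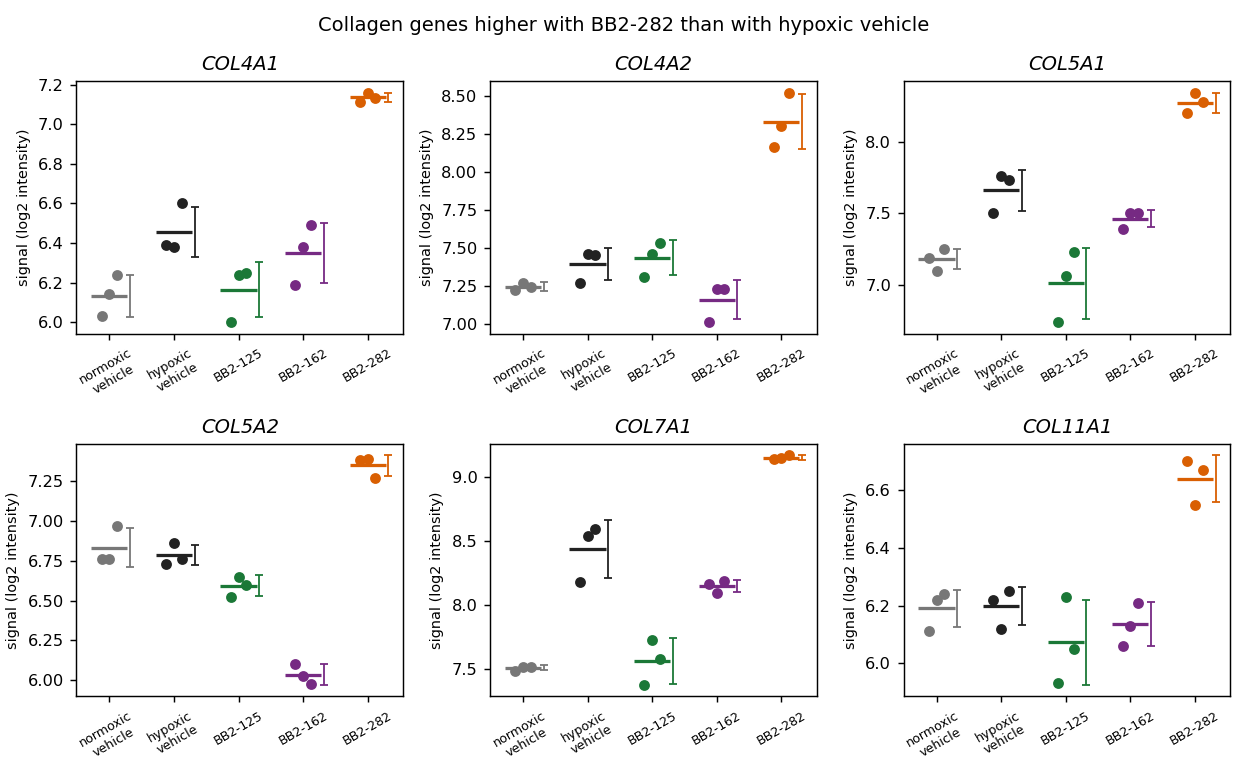
Log2 signal (vertical axis) of 6 collagen genes in the 5 groups (horizontal axis); each dot is 1 array, the horizontal line is the mean of 3 and the bar beside it 1 SD. In all 6 panels the 3 BB2-282 arrays lie above every other array; in COL5A2 the BB2-162 arrays lie below every other array, and in COL7A1 the BB2-125 arrays overlap the normoxic ones.

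BB2-125 lowered COL7A1, COL5A1, COL4A3 and COL4A5 below the hypoxic vehicle. By limma 0 collagen genes were called higher, and 0 at an unadjusted p under 0.05. These 4 of 41 tested genes (9.76%) compare with 28.4% of all tested genes called in either direction, 13.3% higher and 15% lower. The median change was -0.01 against 0.03 for all tested genes, and the median size of change was 0.07 against 0.18.

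COL7A1 read 8.18, 8.54 and 8.60 with vehicle and 7.38, 7.73 and 7.58 with BB2-125, without overlap. It fell by 0.88 ± 0.11 on the log2 scale (limma adjusted p = 9.1e-06). COL5A1 read 7.50, 7.76 and 7.73 with vehicle and 6.74, 7.06 and 7.23 with BB2-125, a change of -0.65 ± 0.12 (limma adjusted p = 0.000279). Set directly against normoxic vehicle, COL7A1 with BB2-125 differed by 0.05, with a 95% interval of -0.19 to 0.29, and COL5A1 by -0.17, with an interval of -0.41 to 0.08.

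COL4A3 read 6.71, 6.72 and 6.72 with vehicle and 6.11, 6.28 and 6.31 with BB2-125, a change of -0.48 ± 0.10 (limma adjusted p = 0.000932). COL4A5, whose arrays were already lower in hypoxia than in normoxia, read 6.20, 6.48 and 6.20 with vehicle and 5.85, 6.02 and 5.93 with BB2-125, a change of -0.36 ± 0.10 (limma adjusted p = 0.00932). The first 3 calls held in each of 14 settings, and that of COL4A5 was lost without hypoxic vehicle replicate 2 (-0.27, limma adjusted p = 0.0678).

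COL4A1 read 6.00, 6.24 and 6.25 with BB2-125, below the 3 vehicle arrays, and its change of -0.29 ± 0.11 just missed the threshold (limma adjusted p = 0.0502). It was called in 6 of the 14 settings, among them median centring, at -0.31 (limma adjusted p = 0.0271). With the replicate number as a block it was called too (limma adjusted p = 0.0276). Hypoxic vehicle and BB2-125 were the only pair of groups with all same-number correlations over 0.1, at 0.328, 0.286 and 0.189. COL4A2 at 7.31, 7.46 and 7.53 and COL1A1 at 7.53, 7.74 and 7.70 overlapped the vehicle arrays, with changes of 0.04 and 0.14. The other 2 probe sets of COL11A2 went from a mean of 6.31 with vehicle to 6.81 with BB2-125, 6.76 with BB2-162 and 6.79 with BB2-282. The brightest one went from 7.21 to 7.20, 7.35 and 7.25 and was not called with any compound. With the mean over its probe sets COL11A2 was called higher with each, by 0.33, 0.34 and 0.33 (limma adjusted p = 0.0126, 0.00876 and 0.0251), so the size and the call depended on the probe set, and with BB2-125 the direction too.

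BB2-162 lowered COL5A2 and, by smaller steps, changed 5 other genes. COL5A2 read 6.73, 6.86 and 6.76 with vehicle and 6.10, 6.03 and 5.98 with BB2-162. All 3 treated arrays lay below every other array of the series, and the change was -0.75 ± 0.09 (limma adjusted p = 6.87e-06). COL5A1 read 7.39, 7.50 and 7.50 with BB2-162, which touched the vehicle arrays, with a change of -0.20 and a 95% interval of -0.44 to 0.04.

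COL4A3 read 6.47, 6.27 and 6.53 with BB2-162, below its 3 vehicle arrays, a change of -0.29 ± 0.10 (limma adjusted p = 0.0285). COL1A1 read 7.70, 7.94 and 7.89, above its vehicle arrays, a rise of 0.33 ± 0.10 (limma adjusted p = 0.0206). COL26A1, COL9A3 and COL23A1 rose by 0.41 ± 0.12, 0.40 ± 0.14 and 0.31 ± 0.12 (limma adjusted p = 0.0161, 0.0327 and 0.0423), and the groups overlapped for COL26A1. COL4A1 and COL4A2 changed by -0.11 and -0.24 and COL7A1 by -0.29 (limma adjusted p = 0.444, 0.0945 and 0.0514), none of them called.

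In all, 6 of 41 tested genes were called with BB2-162 (14.6%), 4 higher and 2 lower, against 36.1% of all tested genes, 15.7% higher and 20.4% lower. The median change of the collagen genes was 0.16 against 0.06 for all tested genes. All tested genes in the lower 2 bins of mean signal, which hold 11 and 17 of the collagen genes, had median changes of 0.15 and 0.13, against -0.04 and -0.13 in the upper 2 bins. The collagen genes had medians of 0.17 and 0.10 in the lower 2 bins and 0.15 in the bin above them, where all tested genes had -0.04 and where COL1A1, COL9A3 and COL23A1 lie. Markers of cell types foreign to the culture shifted too: 1 of 2 tested fibroblast markers, 1 of 5 endothelial and 2 of 3 leukocyte markers were called higher, with medians of 0.27, 0.27 and 0.31, while DCN, LUM, POSTN and PTPRC stayed below the filter. The part of these shifts in the small rises of collagen genes was not tested. With arrays centred on the median, 1 collagen gene was higher and 5 lower.

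COL5A2 was the only one of these 6 calls that held in each of 14 settings. The count depended on single arrays: it was 18, of which 15 were higher, without BB2-162 replicate 1, the array that stood furthest from its group. It was 1 without BB2-162 replicate 2 or hypoxic vehicle replicate 2, and 2 without BB2-162 replicate 3 or hypoxic vehicle replicate 1. COL5A2 was lower in all of these.

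The 3 compounds were given at the same dose and time, so their arrays were set against each other in 3 pairs. BB2-282 stood above each of the other compounds in COL4A1, COL4A2, COL5A1, COL5A2, COL7A1 and COL11A1, and each of these 12 differences held in all 14 settings. The 3 pairs share arrays, since each compound enters 2 of them.

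BB2-125 against BB2-282 gave 9 of 41 tested genes called (22%), all lower with BB2-125, where 36.3% of all tested genes were called, 18.7% higher and 17.6% lower. COL7A1 differed by -1.59 ± 0.11 (limma adjusted p = 5.31e-09) and COL5A1 by -1.26 ± 0.12 (limma adjusted p = 1.15e-07). COL4A1 differed by -0.97 ± 0.11 and COL4A2 by -0.89 ± 0.11 (limma adjusted p = 9.45e-07 and 2.86e-06). COL5A2, COL11A1 and COL4A3 differed by -0.76 ± 0.09, -0.57 ± 0.10 and -0.46 ± 0.10. COL27A1 and the type VI chain COL6A1, at -0.28 and -0.29, were called too, but COL27A1 was lost without BB2-125 replicate 1 (-0.19, limma adjusted p = 0.159) and COL6A1 without BB2-282 replicate 1 (-0.24, limma adjusted p = 0.15), each among other omissions.

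BB2-162 against BB2-282 gave 10 of 41 called (24.4%), 3 higher and 7 lower with BB2-162, against 35.8% of all tested genes, 15.6% higher and 20.3% lower. COL5A2 differed most, by -1.31 ± 0.09 (limma adjusted p = 7.97e-09), followed by COL4A2 at -1.17 ± 0.11 (limma adjusted p = 1.73e-07). COL7A1, COL5A1, COL4A1 and COL11A1 differed by -1.001 ± 0.11, -0.81 ± 0.12, -0.79 ± 0.11 and -0.51 ± 0.10. COL6A6, COL9A3, COL23A1 and COL4A3 were called at sizes under 0.4 but lost the call in several settings, and with arrays centred on the median the split was 0 higher and 8 lower. Without BB2-162 replicate 1 the count was 16.

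BB2-125 against BB2-162 gave 4 of 41 called (9.76%), 1 higher and 3 lower with BB2-125, against 26.1% of all tested genes, 16.7% higher and 9.43% lower. COL5A2 was higher with BB2-125 by 0.56 ± 0.09 (limma adjusted p = 0.000253). COL7A1 was lower by -0.59 ± 0.11 (limma adjusted p = 0.000814) and COL5A1 by -0.45 ± 0.12 (limma adjusted p = 0.00773), though COL5A1 lost its call without BB2-125 replicate 1 (-0.32, limma adjusted p = 0.0576). COL26A1 was lower by -0.35 ± 0.12 and held in 7 of 14 settings. With median centring COL26A1 lost its call (-0.30, limma adjusted p = 0.063) and COL4A2 gained one (0.33, 0.0325), which made 2 higher and 2 lower, and none of the 4 genes changed direction. Without BB2-162 replicate 1 there were 12.

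Several genes were not shown to differ between compounds, and the intervals limit how far apart they may lie. For COL4A1, BB2-125 and BB2-162 differed by -0.18, with a 95% interval of -0.41 to 0.04. For COL4A2 the same pair differed by 0.28 (0.05 to 0.51), which missed the threshold over all genes (limma adjusted p = 0.0657) and passed it with median centring (0.33, 0.0325). For COL11A1 that pair differed by -0.06 (-0.27 to 0.14). COL1A1 differed by -0.19 (-0.41 to 0.03), -0.21 (-0.43 to 0.01) and -0.02 (-0.24 to 0.20) in the 3 pairs. COL12A1, low in all hypoxic groups, had wider intervals, such as -0.75 to 0.11 for BB2-125 against BB2-282. When p-values were adjusted over all 3 pairs together, the same 9 and 10 genes were called against BB2-282, and 6 rather than 4 between BB2-125 and BB2-162.

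**Figure D4:**
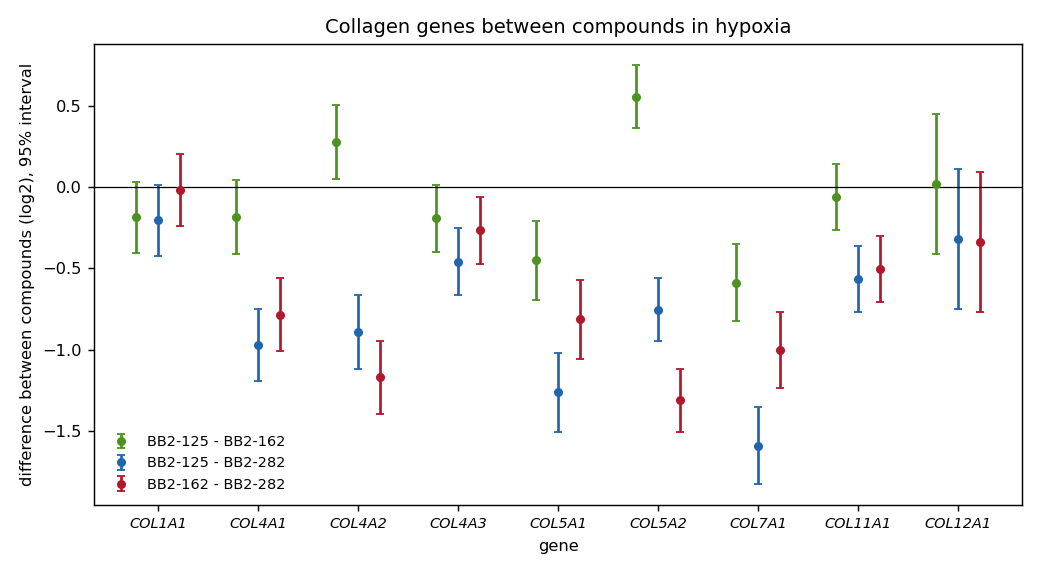
Difference between compounds in log2 signal (vertical axis) for 9 collagen genes (horizontal axis), as first minus second compound of each pair; dots are differences of means of 3 arrays and bars the 95% interval. Both comparisons with BB2-282 lie below 0 with their whole interval for COL4A1, COL4A2, COL4A3, COL5A1, COL5A2, COL7A1 and COL11A1, and the COL5A2 difference of BB2-125 and BB2-162 lies above 0 at 0.56.

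Against normoxic vehicle, which combines low oxygen and compound, the groups separated further. With BB2-282, COL7A1 stood at 1.64 ± 0.11 above normoxia (limma adjusted p = 3.48e-10), COL5A1 at 1.10 ± 0.12, COL4A2 at 1.09 ± 0.11 and COL4A1 at 1.001 ± 0.11, and 24 of 41 genes were called (58.5%), 21 higher and 3 lower. Of all tested genes 64.8% were called there, 33.4% higher and 31.4% lower. With BB2-162, 26 genes were higher and 4 lower (73.2%), against 76.8% of all tested genes, 42.4% higher and 34.4% lower. Among them COL9A3 was higher by 0.83 ± 0.14 and COL5A2 lower by -0.80 ± 0.09 (limma adjusted p = 4.51e-05 and 4.59e-07). Centring the arrays moved the median of all genes in this comparison from 0.14 to 0.03, a shift that bears on small changes, and left 18 collagen genes higher and 4 lower.

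With BB2-125, 9 genes were higher and 4 lower than in normoxia (31.7%), against 62% of all tested genes, 31.5% higher and 30.5% lower. The 4 lower genes were COL12A1 (-2.15 ± 0.21), COL4A5 (-0.67 ± 0.10), COL4A6 (-0.56 ± 0.09) and COL5A2 (-0.24 ± 0.09). The count was 7 without normoxic vehicle replicate 2 or BB2-125 replicate 3. COL12A1 was lower than in normoxia with each compound, by -2.15, -2.17 and -1.83, and COL6A2 was higher with each, by 0.54, 0.59 and 0.64. COL4A1 and COL4A2 differed from normoxia by 0.03 and 0.19 with BB2-125 and by 0.22 and -0.09 with BB2-162, none of them called. COL1A1 differed by -0.01, 0.17 and 0.19 with BB2-125, BB2-162 and BB2-282, also without a call. Against normoxia, in the same order, 4, 4 and 3 of 5 endothelial markers were called higher, with medians of 0.31, 0.39 and 0.23. Of 3 leukocyte markers 2, 2 and 1 were called higher, and of 2 fibroblast markers 0, 1 and 0. Their bearing on the small rises of collagen genes was not tested.

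The members of each type IV pair that shares the DNA shown above were set side by side, without a test of one member against the other. COL4A1 and COL4A2 both rose with BB2-282, by 0.68 and 0.94. In hypoxia they changed by 0.32 and 0.15, of which the former was called. With BB2-125 they changed by -0.29 and 0.04 (intervals of -0.51 to -0.07 and -0.19 to 0.27). COL4A3 and COL4A4 were both higher in hypoxia, by 0.38 and 0.23, but COL4A4 overlapped between groups and its call was lost in 7 of 14 settings, among them median centring (0.19, limma adjusted p = 0.0782) and the omission of hypoxic vehicle replicate 3 (0.20, limma adjusted p = 0.131). With BB2-125 the pair changed by -0.48 and -0.16, of which the former was called.

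COL4A5 and COL4A6 were both lower in hypoxia, by -0.31 and -0.54, and the call of COL4A5 was lost without hypoxic vehicle replicate 1 or 3 (each -0.27, limma adjusted p = 0.0551 and 0.0549). With the compounds COL4A5 changed by -0.36, -0.24 and -0.30 (limma adjusted p = 0.00932, 0.0654 and 0.0546 for BB2-125, BB2-162 and BB2-282). COL4A6 changed by -0.02, 0.05 and -0.08, with intervals reaching no further than -0.27 and 0.24.

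**Figure D5:**
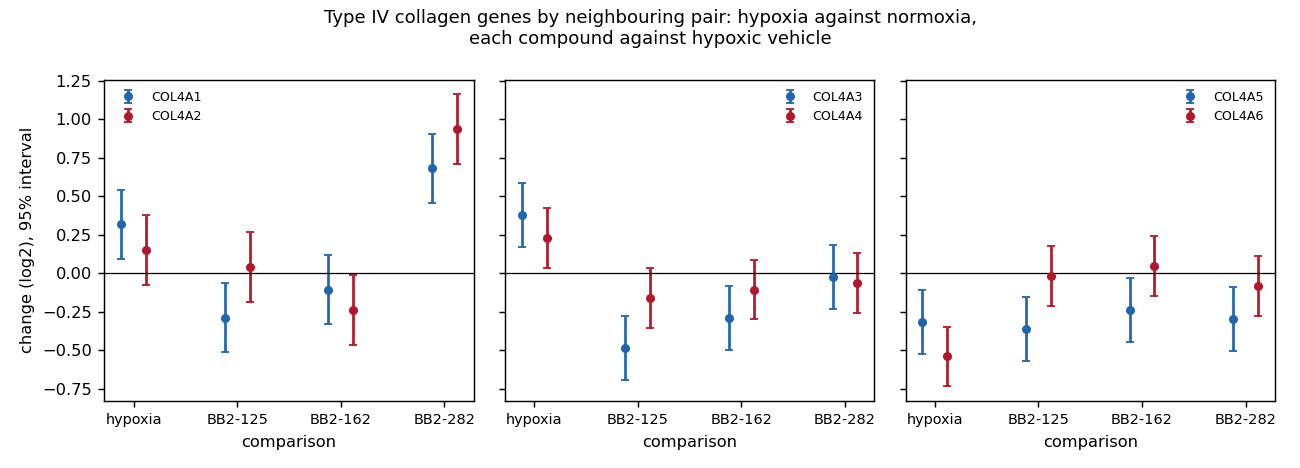
Change in log2 signal (vertical axis) of the 6 type IV genes, 1 panel for each neighbouring pair, in hypoxia against normoxia and with each compound against hypoxic vehicle (horizontal axis); dots are differences of means of 3 arrays and bars the 95% interval. COL4A1 and COL4A2 both lie well above 0 with BB2-282, while COL4A5 lies below 0 in all 4 comparisons and COL4A6 in hypoxia alone with its whole interval.

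Genes that modify, secrete, cross-link, bind or degrade collagen, inhibit its degradation or build basement membranes were read from 6 lists with 77 tested genes. The cross-linking enzymes are given first. LOX, a lysyl oxidase that starts cross-links, read 4.82, 4.75 and 4.53 in normoxia and 7.68, 7.99 and 7.14 with hypoxic vehicle, and between 5.44 and 5.99 with BB2-125 and BB2-162. The 25th percentiles of the normoxic arrays were 4.63, 4.58 and 4.61, so LOX lay near the filter level there. The size of its rise in hypoxia is therefore uncertain. With BB2-282 it read 9.36, 9.33 and 9.40, above all other arrays. Its changes were 2.91 ± 0.16 in hypoxia and -1.70 ± 0.16, -2.06 ± 0.16 and 1.76 ± 0.16 with BB2-125, BB2-162 and BB2-282 (limma adjusted p between 1.56e-11 and 1.01e-06).

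LOXL2, a related enzyme that acts on type IV collagen, changed by 3.64 ± 0.11 in hypoxia and by -0.88, -1.22 and 0.45 with the compounds in the same order. PXDN, the peroxidase that links type IV collagen by sulfilimine bonds, changed by 0.66 ± 0.14 in hypoxia and by -1.20, -0.50 and 0.80 with the compounds. All 12 of these changes of LOX, LOXL2 and PXDN were called. Of the 7 tested cross-linking genes 5 rose in hypoxia, 4 fell with BB2-125, 4 fell with BB2-162 and 3 rose with BB2-282, with medians of 0.66, -0.88, -0.50 and 0.31. The medians of all tested genes were 0.09, 0.03, 0.06 and 0.02. The shares called were 71.4%, 57.1%, 57.1% and 42.9% of the cross-linking genes, against 57.5%, 28.4%, 36.1% and 13.6% of all tested genes. The compound comparisons share the hypoxic vehicle arrays.

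Of 18 genes for hydroxylation and folding of the chains, 6 rose and 4 fell in hypoxia. The prolyl hydroxylase subunits P4HA1 and P4HA2 rose by 2.51 ± 0.17 and 2.17 ± 0.11, and the lysyl hydroxylase PLOD2 by 1.30 ± 0.12. With BB2-125, 3 rose and 5 fell, with BB2-162, 1 rose and 9 fell, and with BB2-282, 1 rose and 4 fell. These are 55.6%, 44.4%, 55.6% and 27.8% of the list, where 57.5%, 28.4%, 36.1% and 13.6% of all tested genes were called. PLOD2 changed by -1.43, -1.39 and -0.12 with the compounds, of which the former 2 were called. Of 17 genes for secretion and processing, 6 rose and 3 fell in hypoxia, 6 fell with BB2-125, 1 rose and 7 fell with BB2-162, and 1 fell with BB2-282, the COPII gene SAR1B (-1.05 ± 0.12). The shares were 52.9%, 35.3%, 47.1% and 5.88%, so in hypoxia and with BB2-282 they were below those of all tested genes. TRAM2, a membrane protein needed for type I collagen synthesis, rose by 1.45 ± 0.15 in hypoxia and changed by -2.46 and -1.97 with BB2-125 and BB2-162. SEC24D, a coat protein of the vesicles that export procollagen, rose by 1.89 ± 0.11 in hypoxia.

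Of 13 other basement membrane genes, 5 rose and 2 fell in hypoxia, 2 rose and 6 fell with BB2-125, 5 fell with BB2-162, and 6 rose and 1 fell with BB2-282. The shares called were 53.8%, 61.5%, 38.5% and 53.8%, against 57.5%, 28.4%, 36.1% and 13.6% of all tested genes, so those in hypoxia and with BB2-162 lay near the background. The one that fell with BB2-282 was the laminin gene LAMB3, at -0.40 ± 0.11, which had risen by 1.87 ± 0.11 in hypoxia and fell with BB2-125 (-1.36) and BB2-162 (-1.28). AGRN, which encodes the proteoglycan agrin, changed by 0.52 in hypoxia and by -0.92, -0.37 and 0.36 with the compounds, and all 4 changes were called. LAMB2 changed by 0.53, -0.73, -1.01 and 0.27, and the last was not called. With BB2-282 the list ran from -0.40 to 1.16, with a median of 0.29 against 0.015 for all tested genes. The named genes were picked by lowest p over hypoxia or a compound and do not include the largest rises with BB2-282.

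Of 9 receptor genes, 3 rose and 1 fell in hypoxia, 2 fell with BB2-125, 3 rose and 1 fell with BB2-162, and 2 rose with BB2-282. The shares called were 44.4%, 22.2%, 44.4% and 22.2%, against 57.5%, 28.4%, 36.1% and 13.6% of all tested genes, below the background in hypoxia and with BB2-125. ITGA2, the collagen-binding integrin chain of epithelia, rose by 2.87 ± 0.16 in hypoxia and changed by -1.99, -1.58 and 0.27 with the compounds. ITGA11, an integrin chain for fibrillar collagen, fell by 1.76 ± 0.13 in hypoxia and rose by 0.85 ± 0.13 with BB2-282. DDR1, a collagen-activated kinase, rose by 0.59 in hypoxia. The degradation list counts proteases and inhibitors of metalloproteinases together. Of its 13 genes, 3 rose and 5 fell in hypoxia and 2 rose and 2 fell with BB2-125. With BB2-162, 3 rose and 2 fell, and with BB2-282, 5 rose and 1 fell. These are 61.5%, 30.8%, 38.5% and 46.2% of the list, near the shares of all tested genes except with BB2-282. With BB2-282 the changes ran from -0.41 to 0.84. Both ends were inhibitor genes, so these are not counts of proteases alone. The lysosomal protease CTSL fell by 1.65 ± 0.12 in hypoxia and rose by 1.94, 0.94 and 0.82 with the compounds. MMP10, a matrix metalloproteinase, rose by 1.97 ± 0.13 in hypoxia and changed by -1.61 with BB2-125. TIMP4, an inhibitor of metalloproteinases, fell by 0.96 ± 0.11 in hypoxia.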

How the data were processed

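The authors deposited linear-scale intensities for 28869 probe sets and 15 arrays, made with RMA per the submitters' processing notes; its software and the array's genome build are not given in the sources used here. The log2 was taken here of these deposited intensities, and no value was missing or at 0. Of the probe sets, 19310 had 1 gene symbol, 1752 had several and 7807 were unnamed, and the brightest of each gene stood for it. Genes had to exceed the array's 25th percentile on at least 3 arrays, which left 16005. Changes were fitted with limma 3.58.1 in R 4.3.3 over all 15 arrays, 5 groups of 3, with p-values adjusted by Benjamini-Hochberg within each of 10 comparisons; the number of arrays limits the precision. The fit was tested on simulated data. Members, gene lists and alternatives were chosen with earlier results of these data known. All called collagen genes may be named, with full statistics for the 8 of lowest p, and COL4A1, COL4A2, COL5A1 and COL1A1 throughout; from each other list at most 3 of lowest p. Alternatives were median centring, quantile normalization, other filters, a replicate block, an intensity trend, the mean of probe sets, the groups alone and leaving out each array. Same-number correlations were all over 0.1 in 1 of 10 pairs of groups, hypoxic vehicle with BB2-125. With 3 arrays a group this cannot decide whether samples of the same number were paired, and the labels do not say that they were.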

Additional observations from a re-analysis of the deposited data

How the results depend on the processing

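Of 125 calls of a collagen gene in a comparison, 76 held in every alternative, 49 were lost in at least 1 and none changed direction. The count of called collagen genes moved by over 1.5 times as follows. With 1 array left out it ran from 10 to 17 in hypoxia, from 1 to 18 for BB2-162 against hypoxic vehicle, from 3 to 12 for BB2-125 against BB2-162, from 7 to 16 for BB2-162 against BB2-282 and from 7 to 15 for BB2-125 against normoxia. With the groups compared alone it was 1 for BB2-162 against hypoxic vehicle, and with quantile normalization it was 8 for BB2-125 against BB2-162; the causes were not tested. Leaving out arrays gave 3 to 4 calls for BB2-125 and 6 to 8 for BB2-282 against hypoxic vehicle. When the replicate number entered as a block, 18, 5, 7 and 7 genes were called for hypoxia, BB2-125, BB2-162 and BB2-282, each within 1.5 times the main count. Same-number correlations ran from -0.429 to 0.58. All 3 were over 0.1 only for hypoxic vehicle with BB2-125, where the block added the call of COL4A1. Whether samples of the same number were paired in any pair of groups cannot be told from these correlations.

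Direction was followed in the called genes, in COL4A1, COL4A2, COL5A1 and COL1A1, and in genes that gained a call. Among these it changed only in genes that were not called, and the cause was not tested. COL11A2 with BB2-125 against hypoxic vehicle went from -0.008 to 0.327 with the mean over its probe sets and was then called (limma adjusted p = 0.0126). COL4A2 with BB2-125 against hypoxic vehicle ran from -0.018 (without vehicle replicate 1) to 0.103 when 1 array was left out. COL1A1 between BB2-162 and BB2-282 became 0.040 with quantile normalization and ran from -0.072 to 0.051 (without BB2-162 replicate 1). Between BB2-125 and normoxia, COL1A1 became 0.108 with quantile normalization and ran from -0.053 to 0.049 (without BB2-125 replicate 1). COL4A1 there became -0.030 with median centring and -0.043 with quantile normalization, and ran from -0.023 (without normoxic replicate 1) to 0.111. In simulated data for BB2-282 against hypoxic vehicle over 16005 genes, 96% of changes of 1 log2 unit and 45% of changes of 0.5 were called. The simulation changed 100 genes of each size, whereas 2176 genes were called in the data. The adjusted threshold therefore differs, and these shares cannot be carried over to the data. Small changes may still be missed with 3 arrays a group.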

Other observations

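The antisense transcript COL18A1-AS1, which is no collagen chain, had a probe set of its own. It read 6.25, 6.35 and 6.59 with BB2-162 and between 5.92 and 6.08 on the other 12 arrays, so the BB2-162 arrays lay above all others. The difference was not tested, and whether the probes tell this transcript from COL18A1 is not known from the files.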
